A study of Mus musculus with 6 samples.

Results

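The genes described here are the small leucine-rich proteoglycans Dcn, Bgn, Aspn, Lum, Fmod, Prelp, Omd, Ogn and Epyc, and the matrix Gla protein gene Mgp, 10 genes of the 19751 that a probe of the array named. They were chosen by family, with the knockout minus wild type signals of these same arrays already known. Their differences are therefore given as a description, without printed p-values. Members called by limma at an adjusted p under 0.05 are counted below, and those counts are no test of them. A probe matched 9 of the 10 genes by accession, 1 probe and 1 spot each, and Prelp was not analysed here.

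Testes came from 3 male mice labelled TAp73 KO and from 3 male mice labelled TAp73 WT as controls. All 6 mice were on the C57BL/6J background, were aged 10 weeks and gave a whole testis, and each testis was read on 1 one-colour Agilent array. TAp73 is the full-length form of p73, a transcription factor of the p53 family encoded by Trp73 that keeps its transactivation domain. The allele, the deleted exons and the cells in which the gene was lost are not given in the sources used here, and the whole testis mixes germ cells with all somatic cells. In such bulk tissue, fewer cells of a type and less RNA per cell cannot be told apart.

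Small leucine-rich proteoglycans are secreted proteins with a core of leucine-rich repeats that many of them extend with glycosaminoglycan chains. They sit on collagen fibrils, shape fibril width and spacing, and hold growth factors such as transforming growth factor beta in the matrix. In the testis this matrix lies in the wall of the seminiferous tubule, the interstitium, the vessel walls and the outer capsule. Matrix Gla protein is a small secreted protein that needs vitamin K-dependent carboxylation, is known for preventing calcification of arteries and cartilage, and binds bone morphogenetic proteins.

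Mgp, Dcn and Bgn were lower in all 3 knockout testes than in any wild type testis, at 50.1%, 61.5% and 61.8% of the wild type level. For the other 6 measured genes the groups overlapped. Lum, Fmod, Omd and Aspn had lower means in the knockout, and Ogn and Epyc had higher ones.

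Of the 9 genes, 3 were called lower and 0 higher (limma over all probes, adjusted p under 0.05). In the same fit 2.64% of the 31801 tested probes were called lower and 0.248% higher. All knockout values lay below all wild type values for 3 of the 9 genes and 13.1% of probes, and above them for 0 of the 9 genes and 18.6% of probes. Since the genes were proposed with this contrast in view, nothing is read from these counts. The median log2 difference of the 9 genes was -0.25, against 0.05 over the 16947 genes tested, and the range was -1.0 to 0.26. All 9 genes passed the filter on dim probes, 8 were well above background on all 6 arrays, and 0 were saturated on any array.

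**Figure D1:**
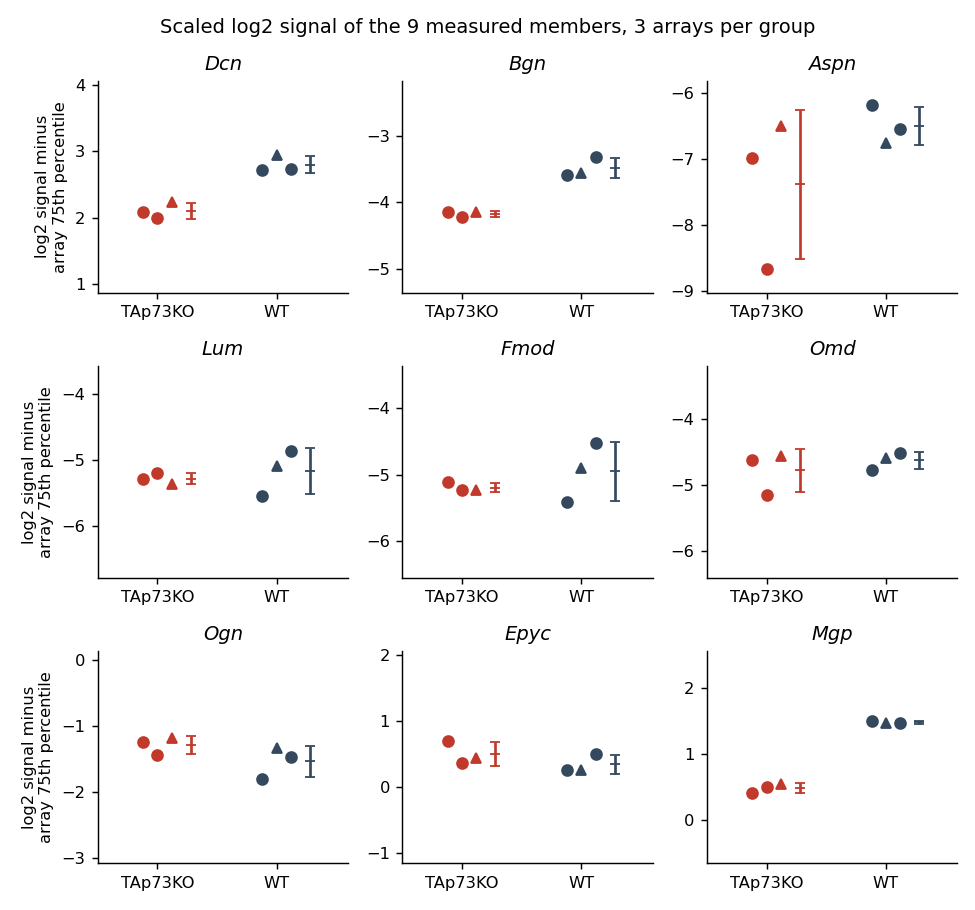
Scaled log2 signal (log2 processed signal minus the array's 75th percentile, vertical axis) of the 9 measured genes in 3 TAp73KO arrays (red) and 3 WT arrays (dark). Circles are arrays of slide 1 and triangles those of slide 2, and the bar beside each group is the mean ± SD; every panel spans the same log2 range. The knockout points lie below all wild type points for Dcn, Bgn and Mgp, whereas the groups overlap in the other 6 panels.

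Before the members, the arrays themselves were checked. Of 39429 probes, each array had 74.4% to 84.4% clear of background, with 1.57% to 4.45% saturated. Arrays correlated at 0.9872 to 0.9958 within a group and at 0.9836 to 0.9931 between groups, over tested probes. Knockout replicate 1 stood apart on the first principal component (39.8% of variance), at -66.2 against -4.9 to 30.8 for the others. The targeted gene, Trp73, was lower in the knockouts on all 3 of its probes, by unequal amounts. Probe A_52_P193555 read 17.2, 4.81 and 5.17 signal units in the knockouts and 605, 548 and 587 in the wild types (-6.01). Probe A_55_P1988133 read 39.1, 28.4 and 23.1 in the knockouts and 378, 308 and 301 in the wild types (-3.21). Probe A_52_P410636 still read 566, 371 and 394 in the knockouts, against 1080, 975 and 1060 in the wild types (-0.99). Where the probes lie relative to the deleted part is not known here. The authors' value table carries opposite group labels for these arrays, and every direction here follows the scanner files. The replicates are separate mice with a single array each, and their number limits the precision. The 6 arrays lay on 2 slides, slide 1 with 2 of each group and slide 2 with 1 of each. Germ cell, Sertoli cell and smooth muscle markers were all measured, in 12 of 12, 12 of 12 and 10 of 10 listed genes.

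Class I holds decorin (Dcn), biglycan (Bgn) and asporin (Aspn). Decorin carries a chondroitin or dermatan sulfate chain, coats collagen fibrils and binds transforming growth factor beta. Its probe read 21810, 16440 and 20580 signal units in knockout replicates 1 to 3, against 37550, 40100 and 35990 in the wild types. The brightest knockout testis thus lay well below the dimmest wild type testis. After scaling of each array to its 75th percentile, the Dcn level was 2.10 ± 0.12 in the knockout and 2.80 ± 0.13 in wild type (log2, SD, n = 3 each). The log2 difference in Dcn was -0.70 (SE 0.10), larger than the spread within either group. It was -0.69 among the arrays of slide 1 and -0.72 in the pair on slide 2.

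Biglycan is decorin's closest relative and also acts as a ligand of Toll-like receptors when released from the matrix. The Bgn probe read 289.9, 221.6 and 246 signal units in the knockouts and 472.7, 444.2 and 545.2 in the wild types and was well above background on all 6 arrays. The knockout values were again all below the wild type ones. Scaled Bgn levels were -4.18 ± 0.04 in the knockout and -3.48 ± 0.15 in wild type (log2, SD, n = 3 each). The Bgn difference was -0.69 (SE 0.09), with -0.74 within slide 1 and -0.61 in the slide 2 pair. Dcn lies on chromosome 10 and Bgn on the X chromosome, so the 2 genes with near-equal differences are not neighbours.

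Bgn is the only gene of the 3 with a promoter in the RefSeq table (GRCm38.p6), and it is shown because its level differed. The 250 bases before its annotated start, chrX:73483351-73483600 on the plus strand, hold 64.4% G and C, against a median of 52.4% over 32851 promoter windows of this length. They hold 0 matches to the p53 family half-site (searched by its consensus, which reads the same on both strands) and 0 to TATAAA on either strand. Over all windows 7.13% hold the first and 12.4% the second, and no match says only that these letters are not in this window. No capitals appear, since nothing matched.
Bgn: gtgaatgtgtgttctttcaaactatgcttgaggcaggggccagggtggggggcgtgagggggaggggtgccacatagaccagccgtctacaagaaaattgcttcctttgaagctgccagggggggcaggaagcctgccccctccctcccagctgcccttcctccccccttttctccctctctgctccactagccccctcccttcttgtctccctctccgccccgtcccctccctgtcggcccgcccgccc

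Asporin, named for a run of aspartate residues, lacks the glycosaminoglycan attachment site of its class. The Aspn probe was close to background, at 40.5, 10.2 and 47.91 signal units in the knockouts and 77.72, 47.68 and 57.92 in the wild types. It was well above background on 2 of 3 knockout and 3 of 3 wild type arrays. The knockout mean was pulled down by replicate 2, and the 2 groups overlapped. The Aspn difference was -0.89 with an SE of 0.54, the widest error of the 9. It was -1.46 within slide 1 but 0.25 in the slide 2 pair, and 0.65 under normexp background correction with 75th percentile scaling, so its direction is not settled.

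Class II holds lumican (Lum), fibromodulin (Fmod), osteomodulin (Omd) and Prelp, whose core proteins typically carry keratan sulfate or unsulfated sugar chains. Lumican limits fibril width in cornea and skin. The Lum probe read 130.8, 112.9 and 105.9 signal units in the knockouts and 121.3, 152.7 and 184.7 in the wild types. The knockout arrays were tightly grouped and lay inside the wild type range after scaling. Lum differed by -0.12 (SE 0.18), with -0.04 within slide 1 and -0.28 in the slide 2 pair.

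Fibromodulin shares a collagen binding site with lumican and guides collagen cross-linking in tendon. Fmod read 148.6, 109.3 and 116.3 signal units in the knockouts and 132.8, 173.8 and 234.4 in the wild types. As with Lum, wild type replicate 1 was the lowest and replicate 3 the highest of the scaled values. The Fmod difference was -0.25 (SE 0.22), and the SD was 0.07 in the knockout and 0.45 in wild type (n = 3 each). Without wild type replicate 1 it was -0.48 and without wild type replicate 3 it was -0.04, so a single wild type testis moved the value by more than 1.5 times either way.

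Osteomodulin, also called osteoadherin, is an acidic protein of mineralised matrix. Omd read 210.5, 115.8 and 184.1 signal units in the knockouts and 207.1, 214.5 and 235.7 in the wild types. Knockout replicate 2 was the low array, and after scaling the other 2 knockouts lay among the wild types. Omd differed by -0.15 (SE 0.17), with -0.24 within slide 1 and 0.02 on slide 2. With single arrays left out, Lum ran over -0.31 to 0.03 and Omd over -0.25 to 0.04. Under normexp background correction and 75th percentile scaling the 3 class II genes turned positive, at 0.46 for Lum, 0.35 for Fmod and 0.37 for Omd, in a setting where the median of all tested probes was 0.22, against 0.06 in the setting used here.

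Class III holds osteoglycin (Ogn), also called mimecan, and epiphycan (Epyc), which have fewer repeats than the other classes. Ogn read 2186, 1529 and 1934 signal units in the knockouts and 1630, 2046 and 1948 in the wild types. The unscaled values of the 2 groups were intermingled, with an unscaled log2 difference of 0.00. After scaling the difference was 0.26 (SE 0.14), with 0.30 within slide 1 and 0.16 in the slide 2 pair, and the groups overlapped. The gap between the unscaled and scaled values is the 75th percentile itself, which was 0.26 lower in the knockout than in wild type on the log2 scale.

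Epiphycan is best known from growth plate cartilage. Its probe was well above background on all 6 testis arrays, at 8359, 5294 and 5890 signal units in the knockouts and 6808, 6216 and 7668 in the wild types. The highest and the lowest of the 6 values were both knockouts. Epyc differed by 0.15 after scaling (SE 0.12) and by -0.11 before it, so its sign follows the scaling. The scaled difference was 0.15 within slide 1 and 0.17 in the slide 2 pair.

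Ogn is shown as the class III gene with the larger difference. Its promoter, chr13:49607765-49608014 on the plus strand of GRCm38.p6, is at 42.0% G and C, and it also holds 0 matches to the p53 family half-site. It holds 2 overlapping matches to TATAAA, 1 on each strand, marked in capitals near the far end of the window.
Ogn: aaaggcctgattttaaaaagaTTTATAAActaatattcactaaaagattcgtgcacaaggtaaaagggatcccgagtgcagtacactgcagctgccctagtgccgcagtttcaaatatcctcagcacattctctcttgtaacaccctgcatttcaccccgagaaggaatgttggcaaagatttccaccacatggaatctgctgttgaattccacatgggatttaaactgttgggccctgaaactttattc
The table held promoters for 7 of the 10 genes, and the half-site was matched in 0 of their 8 entries, where Epyc has 2. Dcn, Lum and Mgp had no entry.

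Mgp showed the largest difference of the genes well above background on every array. It read 6827, 5862 and 6358 signal units in the knockouts and 16110, 14400 and 14910 in the wild types. The 2 groups were far apart and each was tight. Scaled Mgp levels were 0.48 ± 0.07 in the knockout and 1.48 ± 0.02 in wild type (log2, SD, n = 3 each). The difference was -1.0 (SE 0.07), with -1.03 within slide 1 and -0.93 in the slide 2 pair. Before scaling it was -1.26, and the unscaled differences of Dcn and Bgn were -0.96 and -0.95.

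**Figure D2:**
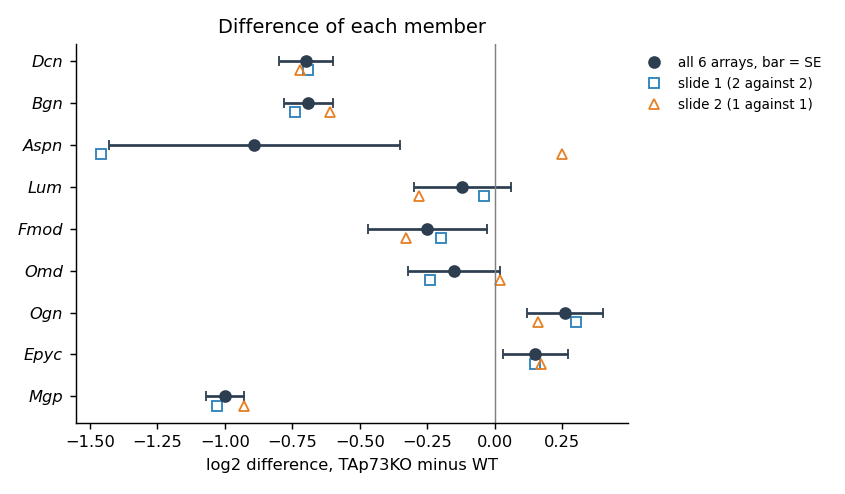
Log2 difference, TAp73KO minus WT (horizontal axis), of each measured gene. Filled circles are the fit of all 6 arrays with its SE, squares are slide 1 alone and triangles the slide 2 pair. Dcn, Bgn and Mgp lie left of 0 on both slides, at -0.61 or lower, while Aspn and Omd change sign between the slides.

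With each of the 6 arrays left out in turn, the difference was -1.03 to -0.96 for Mgp, -0.77 to -0.63 for Dcn and -0.75 to -0.61 for Bgn. In these 6 fits Mgp was called lower in 6, Bgn in 1 and Dcn in 0 (limma, adjusted p under 0.05). Without knockout replicate 1, the array that stood apart, the differences were -0.96 for Mgp, -0.69 for Dcn and -0.71 for Bgn. The arrays are those on which the genes were chosen, so these ranges and counts describe the values and are no test of them. Under normexp with 75th percentile scaling, Mgp, Dcn and Bgn were at -0.98, -0.73 and -0.11. That setting called 0 of all tested probes lower and 0 higher (limma; the unadjusted p was below 0.05 for 810 lower and 1075 higher probes).

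**Figure D3:**
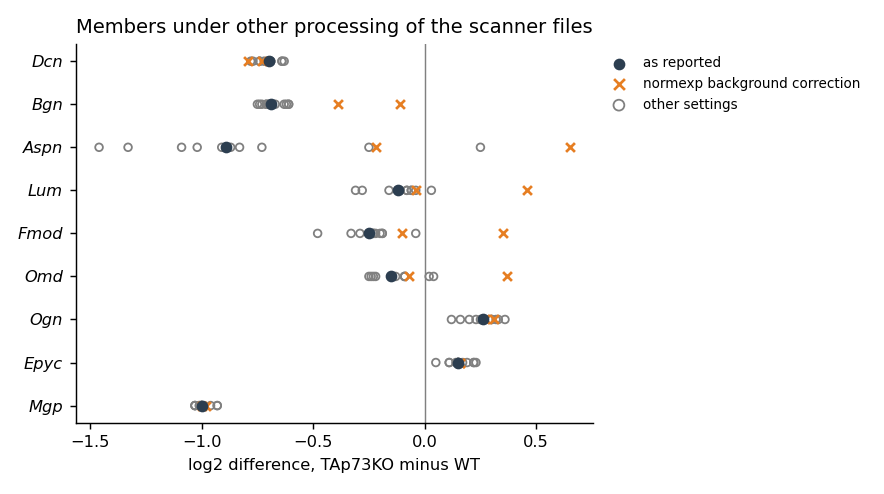
Log2 difference, TAp73KO minus WT (horizontal axis), of each gene as reported (filled), under normexp background correction (crosses) and under the other settings run on the scanner files (open). Mgp stays between -1.03 and -0.93 and Dcn between -0.79 and -0.63, whereas the dim probes of Aspn, Lum, Fmod and Omd cross 0 and that of Bgn reaches -0.11.

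Several family members sit side by side on a chromosome. Dcn and Lum are neighbouring protein-coding genes on chromosome 10, and Epyc follows Lum with 1 gene, Kera, between them. Their differences were -0.70, -0.12 and 0.15, and Kera, the cornea proteoglycan keratocan, was well above background on 0 of 6 arrays. Aspn, Omd and Ogn are consecutive on chromosome 13, next to Ecm2, with differences of -0.89, -0.15 and 0.26, and -0.52 for Ecm2 (adjusted p = 0.194). Whether neighbours differ from each other in their change was not tested.

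The genes around this family were listed with earlier results of these data known, and each list is given by its counts and median beside 2.64% of probes called lower, 0.248% called higher and a median of 0.05 over all genes. Of 9 other leucine-rich repeat matrix genes tested, 0 were called (limma; the unadjusted p was below 0.05 for 2 lower genes and 1 higher gene), with a median of 0.08. The smallest p-values were those of Chadl, a chondroadherin-like protein (0.27, adjusted p = 0.139), and of Ecm2. Of 26 other proteoglycans 1 fell, the cell surface glypican Gpc4, which read 491.9, 492.1 and 429.5 signal units in the knockouts and 1073, 1116 and 1211 in the wild types (-1.01, SE 0.12, adjusted p = 0.0151). The median of that list was -0.05, and its count was 0 without knockout replicate 3, wild type replicate 2 or wild type replicate 3.

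Of the 7 partner lists, the largest share of lower genes was among ligands and receptors that small leucine-rich proteoglycans bind, where 7 of 24 tested genes fell and 0 rose, with a median of -0.43. Tgfbr2, the type II receptor of the growth factor that decorin holds, fell by 0.79 (adjusted p = 0.0139). Cd14, a co-receptor of the Toll-like receptors that biglycan binds, fell by 0.72 (adjusted p = 0.01), and Bmp4, a ligand that matrix Gla protein binds, by 0.75 (adjusted p = 0.0391). The ATP-gated channel P2rx4 fell by 0.50 (adjusted p = 0.0273). The remaining 3 falls, named after their values were seen, were Tgfb1 (-0.44, adjusted p = 0.0401), Tgfb3 (-0.46, adjusted p = 0.0401) and Lrp1 (-0.52, adjusted p = 0.0458), an endocytic receptor of decorin. The count of 7 fell to 0 without knockout replicate 2 or without wild type replicate 2, and was 3 at most when an array was left out. Under normexp with 75th percentile scaling the median was -0.05, against 0.22 over all tested probes.

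Collagens and chain synthesis showed fewer calls. Of 32 fibrillar collagen and processing genes 2 fell and 0 rose, tenascin X, Tnxb (-0.73, adjusted p = 0.0355), and the collagen lysyl hydroxylase Plod2 (-0.45, adjusted p = 0.0494), with a list median of -0.17. The main collagens on which decorin sits were not called. These were Col1a1 at -0.08 (SE 0.19), Col1a2 at -0.19 (SE 0.18) and Col3a1 at -0.22 (SE 0.25), picked after their values were seen. Col1a1 read 3003, 1901 and 2427 signal units in the knockouts and 2455, 3124 and 3654 in the wild types, an overlap that Dcn did not have. Of 31 genes of glycosaminoglycan chain synthesis 3 fell and 0 rose, with a median of -0.24. They were the sulfotransferases Chst3 (-0.79, adjusted p = 0.0124) and Ust (-0.58, adjusted p = 0.0429) and the galactosyltransferase B4galt1 (-0.63, adjusted p = 0.0235). The sulfotransferase Chst5, picked after its value was seen, was higher without overlap but not called (1.65, SE 0.37, limma adjusted p = 0.0757). It read 290.8, 163.1 and 129.5 signal units in the knockouts and 86.31, 92.62 and 42.33 in the wild types. When an array was left out, the count of lower genes was 0 to 1 for collagens and 0 to 2 for chain synthesis. In chain synthesis 1 gene was called higher without wild type replicate 3.

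Around Mgp, 1 of 31 genes of the Gla proteins, the vitamin K cycle and calcification control fell, the Gla protein Pros1, protein S (-0.59, adjusted p = 0.0152), and 0 rose, with a median of -0.08. The count was 0 without knockout replicate 2, knockout replicate 3 or wild type replicate 2, and 2 without wild type replicate 1. Ggcx, the carboxylase that acts on Mgp, was at -0.17 (adjusted p = 0.383), named after its value was seen. Of 8 tested proteases that cut these proteoglycans 0 were called (limma; the unadjusted p was below 0.05 for 4 lower and 0 higher genes), with a median of -0.35. These are the brightest probes, and with any tested probe of a gene counted, 1 of the 8 was called lower. The smallest p-values of the brightest probes were those of the cathepsin Ctsk (-0.68, adjusted p = 0.0714) and the serine protease Htra1 (-0.45, adjusted p = 0.0985). A further 5 listed proteases, Mmp3, Mmp8, Mmp9, Mmp13 and Gzmb, were not well above background on any array. Mmp7 was not well above background on any wild type array, nor Mmp12 on any knockout array, and neither was tested.

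**Figure D4:**
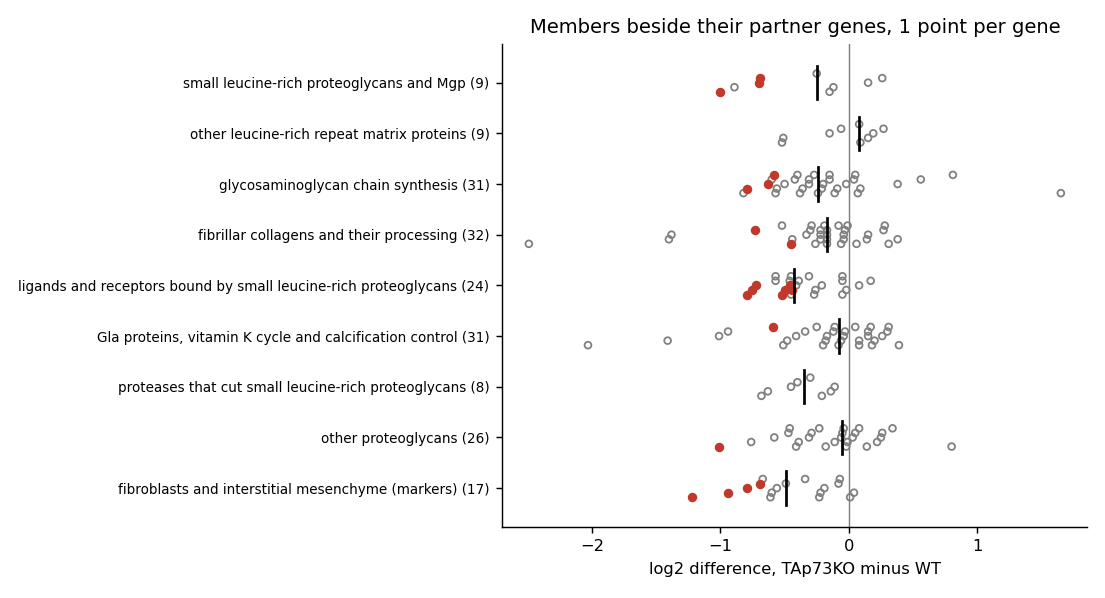
Log2 difference, TAp73KO minus WT (horizontal axis), of every tested gene in the family, in the 7 partner lists and among fibroblast markers, with the number of genes in brackets. Red points passed an adjusted p of 0.05, open points did not, and black bars are medians. The ligand and receptor list has its median at -0.43 and 7 red points, and the family itself has a median of -0.25 and 3.

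Markers of cells that make such matrix were read on the same arrays. Of 17 markers of fibroblasts and interstitial mesenchyme 4 fell and 0 rose, with a median of -0.49. They were Serping1, the C1 inhibitor (-1.22, adjusted p = 0.00369), the stem cell antigen Ly6a (-0.94, adjusted p = 0.0148), the growth factor receptor Pdgfra (-0.79, adjusted p = 0.0341) and Cd34 (-0.69, adjusted p = 0.0415). The other 13 did not pass, and among them were Col1a1, Col1a2 and Col3a1 as given above, Thy1 at 0.01, Dpp4 at 0.04 and Pi16 at -0.07. The summed scaled signal of that list was 9.74 to 9.86 times the array's 75th percentile signal in the knockouts and 12.7 to 15.2 times in the wild types. The 4 called genes are part of that sum, so no drop across the list is read from it. Of its markers, Dpt was not well above background on any knockout array. Their part in the differences of Dcn, Bgn and Mgp was not tested.

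For other cell types that could hold Mgp or decorin RNA, 1 of 10 peritubular myoid and smooth muscle markers fell, Smtn (-0.56, adjusted p = 0.0293), with summed signals of 33.8 to 37.0 in the knockouts and 30.9 to 35.8 in the wild types. Actg2, with the highest signal in that sum, was saturated on 6 of 6 arrays (68500 to 74410 signal units in the knockouts, 64130 to 69640 in the wild types), so no direction is read from the sum. Of 12 endothelial markers 2 fell, Robo4 (-2.80, adjusted p = 0.00369) and Ly6c1 (-0.67, adjusted p = 0.0248), with summed signals of 5.21 to 5.54 in the knockouts against 6.25 to 6.68 in the wild types. Both called genes are part of that sum, so no drop across the list is read from it. The other 10 were not called, and the list median was -0.15, with 9 negative and 3 positive differences. Among them Tek, Tie1, Vwf and Kdr were at -0.01, 0.02, 0.08 and 0.08, and Pecam1 and Cdh5 at -0.17 and -0.33. Of 7 mural cell markers 1 fell, Abcc9 (-0.82, adjusted p = 0.0304), with summed signals of 4.48 to 5.10 in the knockouts against 4.34 to 6.10 in the wild types. Of 9 macrophage markers 1 fell, C1qc (-0.72, adjusted p = 0.0198), with summed signals of 3.02 to 3.35 in the knockouts against 3.99 to 4.68 in the wild types. With any tested probe of a gene counted, 2 macrophage markers were called lower. Of 12 Sertoli cell markers 3 fell, Sox9, Gata1 and Aard, by 0.64, 0.51 and 0.44 (adjusted p = 0.0186, 0.0464 and 0.0401), with summed signals of 35.9 to 39.3 in the knockouts against 41.0 to 43.4 in the wild types, a sum that includes Amhr2, saturated on 4 of 6 arrays. Of 7 Leydig cell markers 1 fell, Hsd3b1 (-0.76, adjusted p = 0.0369), with summed signals of 13.5 to 23.7 in the knockouts against 18.5 to 29.4 in the wild types. The called genes are likewise part of the macrophage and Sertoli cell sums, and no drop across those lists is read from them. In these lists 0 genes were called higher. The unadjusted p (limma) was below 0.05 for 2 higher smooth muscle markers, the saturated Actg2 and Cnn1, and 1 lower one. It was so for 1 higher and 2 lower Leydig cell markers. For endothelial, mural, macrophage and Sertoli cell markers it was so for 3, 3, 4 and 9 lower genes and 0 higher. Medians were -0.14 for smooth muscle, -0.07 for mural, -0.23 for macrophage, -0.44 for Sertoli and -0.29 for Leydig cell markers.

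No marker was called among 12 of germ cells, 9 of epididymis and efferent ducts, 5 of mesothelium and 6 of blood (limma; the unadjusted p was below 0.05 for 1, 1, 1 and 3 lower genes and for 4, 0, 0 and 0 higher genes). Their medians were 0.22, 0.03, -0.11 and -0.61. The epididymal lipocalins Lcn5, Lcn8 and Lcn9, with Rnase9, were not well above background on any array. Summed signals were 85.3 to 104 in the knockouts against 76.8 to 87.8 in the wild types for germ cells, 17.2 to 20.6 in the knockouts against 17.5 to 18.9 in the wild types for epididymis, 0.107 to 0.141 in the knockouts against 0.128 to 0.196 in the wild types for mesothelium, and 8.75 to 15.2 in the knockouts against 13.9 to 19.0 in the wild types for blood. No direction is read from the germ cell and epididymis sums or medians. In the first, Prm1, Prm2, Tnp1, Tnp2 and Odf1 were saturated on 4 or 5 of 6 arrays, and in the second Cst8 on 5. Prm1 read 65230 to 73180 signal units in the knockouts and 63420 to 72740 in the wild types before scaling by the 75th percentile, which was 0.26 lower in the knockout (log2). The smallest p-values were those of Spo11 (0.23, adjusted p = 0.146), Odf1 (0.28, adjusted p = 0.197), Wfdc10 (-0.29, adjusted p = 0.12), Cst8 (0.23, adjusted p = 0.255), Krt19 (-0.60, adjusted p = 0.199), Msln (-0.99, adjusted p = 0.302), Hbb-bt (-0.65, adjusted p = 0.182) and Hba-a2 (-0.61, adjusted p = 0.194). What these cells contributed to the levels of the family was not tested.

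Genes whose level followed Mgp most closely over the 6 arrays were found by Pearson's r among 16938 other genes, as a description with no test. They were Ccdc9b, Gstm6, Rab7b, Ldhd and Slc12a9, with r of 0.9994, 0.9975, 0.9969, 0.9964 and 0.9964, and 39 genes passed an r of 0.99. Ccdc9b read 623.3, 531 and 573.3 signal units in the knockouts and 1496, 1325 and 1332 in the wild types, and its difference of -1.01 is nearly that of Mgp. For Dcn the 5 genes were Srebf1, Rgs2, Myo7a, Gja1 and Rnase4, with r of 0.9973, 0.9972, 0.9952, 0.9948 and 0.9946, and 34 genes passed an r of 0.99. None of these 5 is among the 5 named for Mgp, though Mgp and Dcn themselves had an r of 0.96. Both groups enter each r, so the difference between them is part of it.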

How the data were processed

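Scanner output came from Feature Extraction 10.7.3.1 with an mm9 design, per the file headers, and the deposited values are linear spot intensity after background subtraction. The deposited value table also holds linear intensity; no source used here states its normalization, though the submitters' processing notes name limma. Its columns match the scanner files of the opposite label (r = 0.97 to 0.99, against -0.40 to -0.27 with the same label), so it served only as an alternative.

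Control spots (1377) were left out, and 163 to 280 spots per array marked as outliers by the scanner software were set to missing. Log2 processed signals were averaged per probe and centred on the 75th percentile of the array. Tested probes were well above background on at least 3 arrays, with 2 values per group. Accessions were named through RefSeq (GRCm38.p6), and 26055 of 39429 probes got a symbol. Each gene of a list was represented by its brightest complete probe. Differences are knockout minus wild type from limma 3.58.1 in R 4.3.3 (group as the only term, all 6 arrays, two-sided, Benjamini-Hochberg over all tested probes), a script tested on simulated data.

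The members and lists were chosen with earlier results of these data known. Named were all members, up to 4 called genes per list (or the 2 with the smallest p), and the 5 genes most like Mgp and Dcn. The files hold spot medians, not means, so normexp (offset 50) ran on medians. Alternatives were other scaling, background correction, filters, slide or replicate as a block, single slides, kept outlier spots, the value table and leaving out each array.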

Additional observations from a re-analysis of the deposited data

How the results depend on the processing

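Mgp, Dcn and Bgn kept their direction under every alternative run on the scanner files. Under the value table's own labels they were at 1.03, 0.79 and 0.63, with 0 members lower and 3 higher, 216 probes lower and 876 higher, as its labels are opposite. The count of members called lower was 3 in the reported setting, under median scaling, quantile normalization, the stricter filter, kept outlier spots or any probe of a gene, and 2 under normexp with quantile normalization or with slide as a block. It was 1 with no filter on dim probes, 0 under normexp with 75th percentile scaling, 0 within slide 1 and 0 with a replicate block (limma; the unadjusted p was below 0.05 for 3162 lower and 3261 higher probes), and 1 to 2 without single arrays. Same-numbered arrays did not deviate together (r = -0.03, -0.08 and -0.09), so the replicate block, which left 9 probes lower and 1 higher, is no paired result. Over all probes, 838 were lower and 79 higher, against 143 higher under median scaling (79.9% of calls lower, against 91.4%), 217 under quantile normalization (80.0% lower), 405 lower under normexp with quantile normalization (81.7% of calls lower), 349 and 13 with no filter, 165 higher with the strict filter, 299 and 15 with slide as a block, 0 and 0 within slide 1 (limma; the unadjusted p was below 0.05 for 1809 lower and 1332 higher) and under normexp with 75th percentile scaling. Without single arrays they were 116 to 420 lower and 7 to 28 higher. The cause of these changes was not tested. The 7 partner lists held 14 lower genes, and 17 with any tested probe of a gene counted. Counted that way, the ligand and receptor list held 8, the collagen list 3 and the protease list 1. On the brightest probes the 7 lists held 0 to 8 lower genes without single arrays, 7 under median scaling and 14 under quantile normalization. They held 5 with slide as a block and 5 under normexp with quantile normalization. The count was 0 each under normexp with 75th percentile scaling, within slide 1 and with a replicate block. The cell type marker lists were not rerun under these alternatives or without single arrays. For them only the count over any tested probe was made. Aspn, near background, is limited by signal.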

Other observations

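Some partner genes were far lower on a single array than on the other 5, and their values are given here without explanation; they were picked after the values were seen. On knockout replicate 1, Slc20a2, a phosphate transporter, read 229.7 signal units, against 2841 and 2276 on the other knockouts and 4388, 3245 and 3367 in wild type. On that array the lysyl hydroxylase Plod3 read 292.4 signal units, against 2652 and 2460 on the other knockouts and 4580, 3647 and 3554 in wild type. There the sulfotransferase Chst1 read 8172 signal units, against 46440 and 46590 on the other knockouts and 54690, 42740 and 44620 in wild type. Vkorc1, the vitamin K epoxide reductase that supports the carboxylation of Mgp, read 9061, 1615 and 9178 signal units in the knockouts and 12360, 11530 and 11490 in wild type, so that replicate 2 was the low array. None of these genes was called. No member departed in this way on knockout replicate 1, where the largest distance from the group mean was 0.40 for Aspn and at most 0.20 for the other 8 on the log2 scale. On knockout replicate 2, Aspn, close to background, deviated from its group mean by -1.27 and Omd by -0.38.

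Spp1, osteopontin, a phosphoprotein of mineralised tissue that sits in the same list as Mgp's partners, read 74.99, 46.03 and 43.5 signal units in the knockouts and 139.2, 389.9 and 319.7 in wild type, without overlap. Its difference was -2.03 (SE 0.42, limma adjusted p = 0.0644), which did not pass the threshold.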
